A study of Mus musculus with 2 samples.

Results

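The 10 genes described here belong to the oxidative and metal stress response and were followed across lung cell classes. They are the metallothionein genes Mt1 and Mt2 and 8 genes known as targets of the transcription factor NRF2 (Hmox1, Nqo1, Gclc, Gclm, Txnrd1, Srxn1, Slc7a11 and Pir). The genes were taken by symbol, and all 10 were found once among the 32285 genes of the deposited matrices. The measurements were unique molecular identifiers (UMIs, each standing for 1 captured mRNA molecule) per gene and cell from droplet single-cell RNA sequencing of mouse lung, in 2 libraries. The WT library came from wild-type C57B6/J mice. The other library came from mice given the same strain label and the genotype Plaur KO. Plaur encodes the urokinase receptor uPAR. Mice of both genotypes (8 each in the study) had received lipopolysaccharide with ovalbumin on days 0 and 7 and an ovalbumin aerosol on day 14, so no library came from unchallenged mice. Lung cells had been sorted as CD45.2-negative, a gate meant to leave structural cells. The number of mice pooled per library, their age, the hours from challenge to harvest and the deleted part of Plaur are not given in the sources used here.

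NRF2, encoded by Nfe2l2, is held at a low level by KEAP1, which marks it for breakdown. Oxidants and electrophiles react with KEAP1 and let NRF2 reach antioxidant response elements (AREs) near its target genes. Metallothioneins are small cysteine-rich proteins that bind zinc and copper, and their genes respond to zinc through the factor MTF1 at metal response elements (MREs), and also to glucocorticoids and inflammation. In the lung these systems are known for protection of the epithelium from inhaled oxidants and metals.

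On GRCm38 (mm10), Hmox1 lies on chromosome 8 at 75093621 to 75100589, Nqo1 on chromosome 8 at 107388225 to 107403206 (minus strand) and Gclc on chromosome 9 at 77754535 to 77794485. Gclm lies on chromosome 3 at 122245557 to 122270732, Slc7a11 on chromosome 3 at 49892526 to 50443614 (minus strand) and Srxn1 on chromosome 2 at 152105516 to 152111376. Txnrd1 lies on chromosome 10 at 82833951 to 82897712 and Pir on chromosome X at 164269371 to 164373011. Annotated genes on the same strand overlap Txnrd1 (Eid3), Gclm, Slc7a11 and Pir, so reads from shared stretches are uncertain for these 4.

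After filtering, 10225 WT cells (50567629 UMIs) and 8934 KO-labelled cells (49431770 UMIs) were kept, with medians of 4837 and 5538 UMIs per cell. The libraries shared 30 cell barcodes, 27 of them among kept cells. Plaur itself was counted in both libraries, at 46.9 CPM in the WT library and 33.1 CPM in the other, and in AT2-like cells at 2.23 against 17.5 CPM. The transcript therefore does not show the knockout, and the second library is called KO-labelled. CPM is the usual depth-scaled count, a gene's UMIs over all UMIs of the same cells. Xist had 12 and 8 UMIs and the Y-linked Ddx3y 4056 and 2970, which matters for Pir, a gene on the X chromosome. Cells fell into 28 clusters, of which 5 met no class name and the others fell into 16 classes by preset markers. Each named class had UMIs of all its markers in both libraries, except neuroendocrine-like cells with 6 of 7. In all, 9 groups had at least 100 cells in each library and were compared. These were alveolar type 2 (AT2)-like (3807 WT and 5812 KO-labelled cells), ciliated-like (958 and 585), mesothelial-like (1024 and 278), adventitial fibroblast-like (466 and 121), aerocyte-like (569 and 419) and venous-like cells (257 and 141), and 3 clusters that met no class name. Cluster 5 (763 and 331 cells) had fibroblast genes, and clusters 3 (1080 and 730) and 13 (186 and 105) had endothelial genes. A further 6 groups, each with 20 or more cells from both libraries, were not compared and enter no count over the compared groups. Their levels are given, and for airway secretory-like cells, with 98 KO-labelled cells, also a few ratios.

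With 1 library per genotype there was no replicate, so no test was possible and no p-value is given. Each log2 ratio is the KO-labelled over the WT library, and its 95% interval covers counting error only. Genotype, pool of mice, sort and library preparation cannot be told apart. A gene was counted as higher or lower when its ratio passed 1.5-fold with at least 20 UMIs over both libraries.

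Both metallothionein genes were by far most abundant in mesenchymal cells, at summed levels that were alike in the 2 libraries. Mt1 stood at 6404 CPM in WT and 6425 CPM in KO-labelled adventitial fibroblast-like cells, about 28.0 and 28.3 UMIs per cell. The log2 ratio was 0.00 (-0.05 to 0.06). Mt2 stood at 2566 and 2427 CPM in the same cells, a log2 ratio of -0.08 (-0.17 to 0.01). Neither gene passed 1.5-fold there, and the intervals of both ratios included 0. Cluster 5 was next, with Mt1 at 4295 and 4557 CPM (0.09, 0.04 to 0.13) and Mt2 at 1440 and 1528 CPM. At the other end stood the endothelial groups and AT2-like cells. Mt1 was between 35.8 and 69.7 CPM in the 4 compared endothelial groups of the WT library and between 12.3 and 139 CPM in those of the KO-labelled library. Of the epithelial classes, neuroendocrine-like (1238 and 772 CPM, from 80 and 20 cells) and ciliated-like cells (795 and 721 CPM) held much more Mt1 than AT2-like (104 and 57.4) or airway secretory-like cells (90.4 and 69.0). The first 3 places in the order of Mt1 and of Mt2 were the same in both libraries, and the intervals of these 3 did not overlap one another. The third, mesothelial-like cells, was not resolved for Mt1 in the WT library (1366 CPM). Its interval overlapped that of smooth muscle-like cells (1354 and 1279 CPM).

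**Figure D1:**
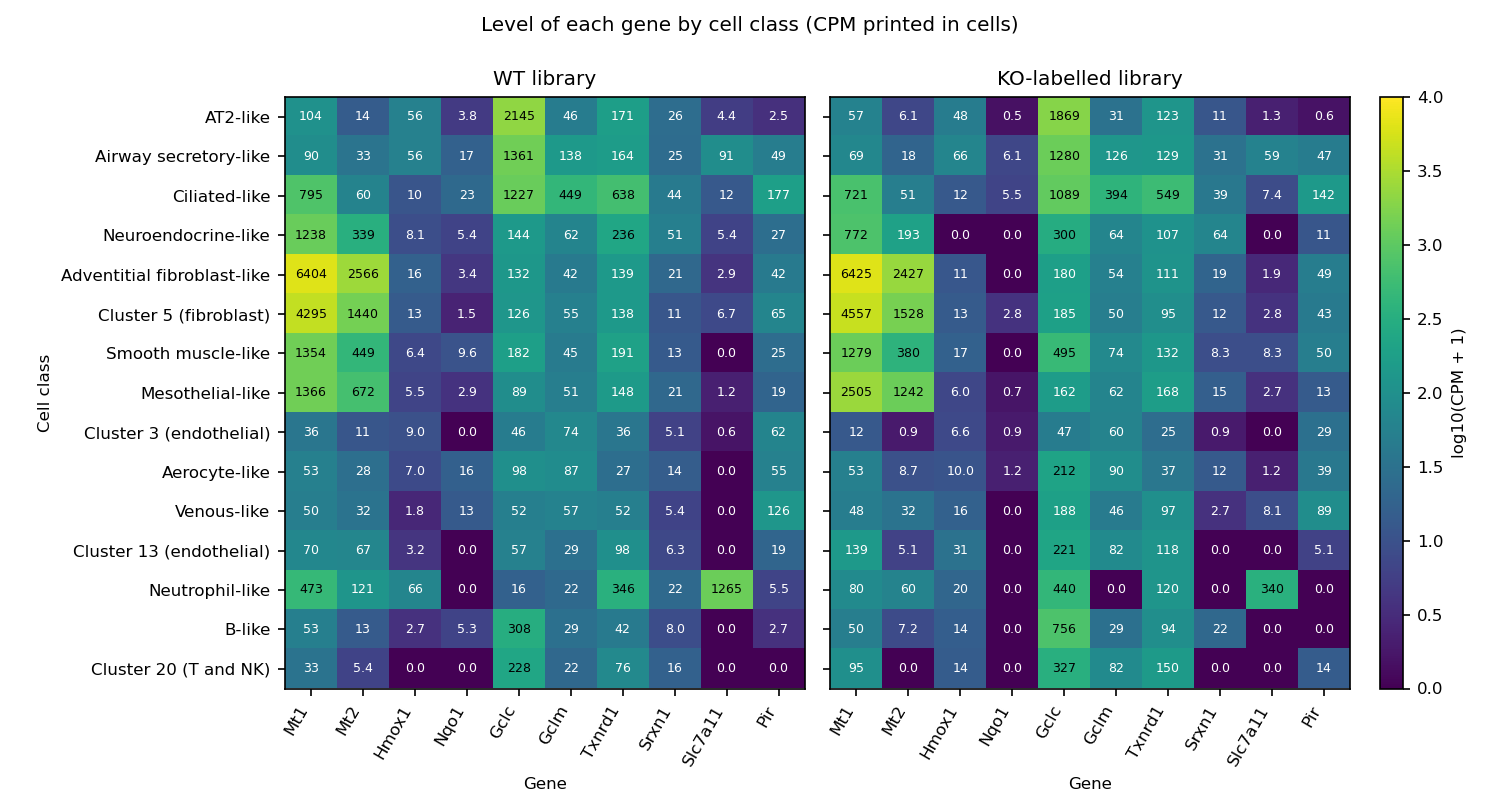
Level of the 10 genes in the 15 cell groups with at least 20 cells in each library (rows), one panel per library, with CPM printed in each cell and colour giving log10(CPM + 1). Mt1 and Mt2 were highest in adventitial fibroblast-like cells (6404 and 2566 CPM in the WT library), Gclc in AT2-like cells (2145 CPM) and Slc7a11 in neutrophil-like cells (1265 CPM).

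Mt1 and Mt2 lie beside each other on chromosome 8 of the GRCm38 (mm10) build, Mt2 at 94172664 to 94173568 and Mt1 at 94179082 to 94180327, both on the plus strand with 5513 bases between them. The promoter windows below run from 250 bases before to 30 bases after the RefSeq start (GRCm38.p6). They are shown because both genes were highest in the same 3 groups and carry the element through which MTF1 acts. Capitals mark matches to the MRE core, TGCACNC or TGCGCNC, on either strand.
Mt1, chr8:94178839-94179118, plus strand: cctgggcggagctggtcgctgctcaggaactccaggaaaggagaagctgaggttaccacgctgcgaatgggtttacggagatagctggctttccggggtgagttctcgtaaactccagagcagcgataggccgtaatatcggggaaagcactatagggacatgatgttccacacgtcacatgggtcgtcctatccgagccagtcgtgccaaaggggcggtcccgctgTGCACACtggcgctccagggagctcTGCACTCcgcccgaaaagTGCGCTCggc
Mt2, chr8:94172368-94172647, plus strand: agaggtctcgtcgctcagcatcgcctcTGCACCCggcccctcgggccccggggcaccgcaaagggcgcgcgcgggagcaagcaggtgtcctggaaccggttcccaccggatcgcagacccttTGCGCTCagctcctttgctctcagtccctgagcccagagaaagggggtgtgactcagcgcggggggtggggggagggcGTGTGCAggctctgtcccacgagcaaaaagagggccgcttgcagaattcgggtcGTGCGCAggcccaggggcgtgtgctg
The Mt1 window held 3 matches and the Mt2 window 4. Of 32851 promoter windows of the same length, 24.1% held at least 1 match, 1.73% at least 3 and 0.405% at least 4. The genes are close paralogues, so reads could be shared between them. At the length of a sequenced read, 90 bases, the annotated transcripts hold 1332 different words for Mt1 and 514 for Mt2, and 0 were common to both.

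The ratio of Mt1 to Mt2 is given first for the 5 compared groups with the most metallothionein UMIs. Ciliated-like cells had 13.4 and 14.2 Mt1 UMIs for each Mt2 UMI, WT first. AT2-like cells had 7.64 and 9.38. Cluster 5 had 2.98 in both libraries, adventitial fibroblast-like cells had 2.50 and 2.65, and mesothelial-like cells had 2.03 and 2.02. With few Mt2 UMIs, aerocyte-like cells had 1.89 and 6.14 (28 and 7 Mt2 UMIs) and cluster 13 had 1.05 and 27 (21 and 1 Mt2 UMIs). Within single mesenchymal and mesothelial cells the genes were counted together, with a Pearson correlation of log2(CPM + 100) between 0.76 and 0.85 over the cells of each of 3 groups and 2 libraries. The points share their cell's depth, so this is a description only.

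Cells of one class differed widely in Mt1. In WT adventitial fibroblast-like cells the 10th percentile was 219 CPM, the median 4554 CPM and the 90th percentile 15948 CPM. In KO-labelled ones they were 159, 1948 and 16017 CPM. The summed levels were thus alike while the median cell was lower in the KO-labelled library. The median was also lower there for Mt2 in these cells (1636 and 603.5 CPM, WT first). In cluster 5 it was lower for Mt1 (1984 and 1346 CPM) and Mt2 (545 and 290 CPM).

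Mesothelial-like cells, which line the lung surface, were the group in which both metallothioneins were higher in the KO-labelled library. Mt1 stood at 1366 CPM (6699 UMIs) in the WT library and 2505 CPM (3759 UMIs) in the KO-labelled one, a log2 ratio of 0.87 (0.82 to 0.93). Mt2 stood at 672 and 1242 CPM, a ratio of 0.89 (0.80 to 0.97). The class was made of 2 clusters, and both genes were higher in each. In cluster 6 (805 and 250 cells) Mt1 was 1416 and 2441 CPM, a ratio of 0.79. In cluster 15 (219 and 28 cells), which also expressed fibroblast genes such as Dcn, Mt1 was 1216 and 3127 CPM, a ratio of 1.36. The share of cells with an Mt1 UMI was 61.0% and 71.9% at median depths of 4889 and 5353 UMIs. Mesothelial-like cells themselves express the fibroblast genes used to trace fibroblast RNA (Dcn, Col1a2, Col3a1 and Mgp). At the fibroblast ratio these genes would stand for 31.4% of WT and 23.6% of KO-labelled mesothelial-like UMIs. Adventitial fibroblast-like cells and cluster 5 held more Mt1, from 4295 to 6425 CPM. At the shares above, their RNA would stand for nearly all or more than all of the WT mesothelial-like Mt1. In the KO-labelled library it would stand for a large part. Because mesothelial-like cells express the traced genes themselves, these shares cannot give the true part of fibroblast RNA. The part of fibroblast RNA in the difference was not tested. Of 8 genes measured, 3 were higher past 1.5-fold (Mt1, Mt2 and Gclc) and 0 lower, against 5.75% higher and 17.2% lower among all genes of this class.

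AT2-like cells make surfactant in the alveoli, and in them all 10 genes were lower in the KO-labelled library. Of these, 7 passed 1.5-fold, against 8.28% of 13830 genes lower and 2.18% higher. The 7 include Pir, whose few UMIs are not read as a difference. The median log2 ratio of the 10 genes was -1.01, beside -0.10 for all genes of the class. Gclm, close to 1.5-fold, was no longer past it in 7 of 12 alternatives, among them TMM scaling, which moves all AT2-like ratios up by 0.12, both other cell filters and doublets kept. The direction of each of the 10 held in the alternatives tried, except that Hmox1 stood at 0.12 with cells thinned to 1000 UMIs, where Pir had too few UMIs for a value. The AT2-like class was made of 6 clusters, and the genes were lower in each cluster with at least 20 UMIs. Mt2 reached 20 UMIs in 5 clusters, Slc7a11 in 4, and Nqo1 and Pir in 2 each. In cluster 0, the largest, Slc7a11 had 8 and 9 UMIs (-0.28, -1.82 to 1.30).

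Among the quinone and redox enzymes, Nqo1, a quinone reductase used as a standard readout of NRF2, had 95 UMIs in WT AT2-like cells and 19 UMIs in KO-labelled ones. These are 3.78 and 0.51 CPM, a log2 ratio of -2.90 (-3.69 to -2.18), from few molecules in either library. Srxn1, sulfiredoxin, which restores overoxidised peroxiredoxins, had 657 and 408 UMIs, or 26.1 and 10.9 CPM (-1.27, -1.45 to -1.09). It was lower past 1.5-fold in 6 of 6 clusters, with ratios from -2.11 to -0.80. Txnrd1, the cytosolic thioredoxin reductase, was lower in 6 of 6 clusters but by less, at 171 and 123 CPM (-0.48, -0.54 to -0.42). Pir, pirin, an iron-binding nuclear protein, had 64 and 22 UMIs. Ciliated cell RNA, scaled by 4 ciliated genes found in AT2-like cells, would give 60.04% of the WT and 198% of the KO-labelled Pir UMIs. The KO-labelled Pir level in AT2-like cells is therefore not above that background, while the WT level is, and no difference is read from it.

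The genes of glutathione supply did not move by one amount. Gclc, the catalytic subunit of glutamate-cysteine ligase that limits glutathione synthesis, had its highest level in AT2-like cells, 2145 and 1869 CPM, and a small ratio (-0.20, -0.21 to -0.18). Gclm, the modifier subunit, stood at 46.5 and 30.8 CPM (-0.59, -0.71 to -0.47). Slc7a11, which imports cystine for glutathione, had 111 and 47 UMIs, or 4.41 and 1.25 CPM (-1.82, -2.34 to -1.31). Hmox1, the haem-degrading heme oxygenase, stood at 55.7 and 47.5 CPM (-0.23, -0.33 to -0.13) and was lower in 6 of 6 clusters, past 1.5-fold in 1. Mt1 stood at 104 and 57.4 CPM (-0.86, -0.95 to -0.78) and Mt2 at 13.7 and 6.12 CPM (-1.16, -1.41 to -0.91), so both metallothioneins were lower in these cells while they were higher in mesothelial-like cells. Fibroblast, mesothelial and ciliated RNA scaled by their own genes would give 4.82%, 2.80% and 6.57% of the WT Mt1 UMIs and 2.26%, 1.22% and 10.3% of the KO-labelled ones. For Mt2 the same sources would give 13.6%, 10.5% and 3.76% of the WT UMIs and 7.46%, 5.67% and 6.80% of the KO-labelled ones.

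**Figure D2:**
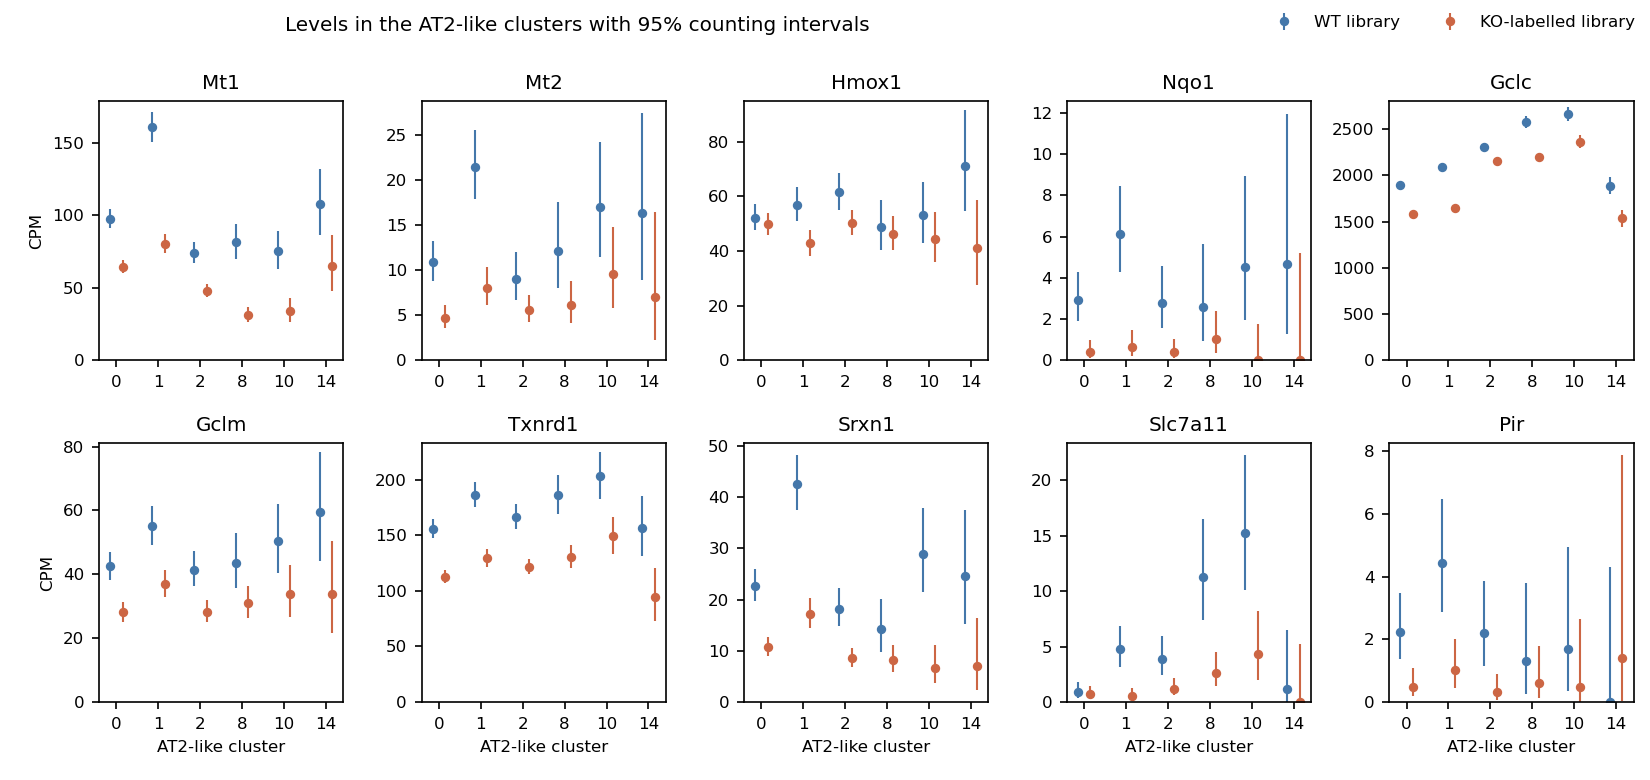
CPM of each gene in the 6 AT2-like clusters (x axis, cluster number), WT library in blue and KO-labelled library in orange, with exact Poisson 95% intervals that cover counting error. The intervals of Mt1 were apart in 5 of the 6 clusters and touched in cluster 14, and those of Gclc differed by little relative to its level of 1535 to 2658 CPM.

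The promoter windows of Srxn1 and Slc7a11 are shown because these 2 genes, lower past 1.5-fold in AT2-like cells, hold the element NRF2 is known to bind. Capitals mark matches to the ARE core, TGACNNNGC or TGAGNNNGC, on either strand.
Srxn1, chr2:152105274-152105553, plus strand: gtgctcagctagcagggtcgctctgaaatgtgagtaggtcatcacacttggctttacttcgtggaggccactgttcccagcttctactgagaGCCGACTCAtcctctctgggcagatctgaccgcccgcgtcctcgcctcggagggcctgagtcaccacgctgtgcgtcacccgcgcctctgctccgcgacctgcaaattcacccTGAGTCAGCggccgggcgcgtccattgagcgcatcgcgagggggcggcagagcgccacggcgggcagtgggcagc
Slc7a11, chr3:50443584-50443863, minus strand: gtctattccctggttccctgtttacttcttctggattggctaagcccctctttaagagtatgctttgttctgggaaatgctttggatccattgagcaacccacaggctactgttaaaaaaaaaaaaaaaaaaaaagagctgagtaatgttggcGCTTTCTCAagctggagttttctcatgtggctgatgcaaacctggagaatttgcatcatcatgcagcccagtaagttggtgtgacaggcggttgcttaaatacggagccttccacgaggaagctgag
The windows held 2 matches and 1 match, while 26.0% of the 32851 windows held at least 1 and 4.01% at least 2. In the same table Pir had 2 matches, Gclm had 1, and 1 of 3 Txnrd1 windows had 1. The window of Nqo1 had none of these letters. Of the 10 genes, 8 matched the table, and Hmox1 and Gclc were not in it.

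Other genes known as NRF2 targets were counted in the same AT2-like cells. Of 42 listed, 37 were measured, 10 were lower past 1.5-fold and 0 were higher, and 1 stood above 0, beside the 8.28% lower and 2.18% higher among all genes of the class. Their median was -0.42, beside -0.10 for all genes. The lowest were Gsta2, a glutathione transferase (18 and 3 UMIs, -3.16, -5.57 to -1.39), and Gpx2, a glutathione peroxidase (29.1 and 8.52 CPM, -1.77, -1.97 to -1.58). The highest were Prdx6, a peroxiredoxin (415 and 435 CPM, 0.07), and Tkt, transketolase (149 and 145 CPM, -0.04). The 10 genes that control NRF2 had 0 past 1.5-fold in either direction and a median of -0.08, against the same shares. Nfe2l2 itself stood at 289 and 308 CPM (0.09, 0.05 to 0.14) and Keap1 at 35.3 and 34.3 CPM (-0.04, -0.16 to 0.08). Mtf1, the zinc sensor, stood at 16.2 and 17.6 CPM (0.12, -0.06 to 0.30). Of 22 zinc and metal handling genes 1 was lower and 0 were higher, with a median of -0.12. Of 14 measured targets of the transcription factor ATF4, 5 were lower and 0 higher (median -0.31). Of 27 glutathione and thioredoxin cycle genes, 2 were lower and 0 higher (-0.07). Nor were lower NRF2 targets limited to AT2-like cells. In adventitial fibroblast-like cells 8 of 31 were lower and 0 higher, where 14% of all genes were lower. Their median there was -0.29, beside -0.02 for all genes. The lowering was not seen in every group. In mesothelial-like cells 7 of 36 were lower and 0 higher, where 17.2% of all genes were lower and 5.75% higher. Venous-like cells had 2 of 19 lower and 3 higher, where 15.1% of all genes were lower and 10.6% higher.

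Ciliated-like cells, which move mucus along the airway, had the same direction at a smaller size. Of the 10 genes, 9 were below 0, though the intervals of Mt2 (-0.49 to 0.03) and Srxn1 (-0.46 to 0.14) included 0. The median of the 10 was -0.20, beside -0.06 for all genes, which was thus also below 0. Lower past 1.5-fold were 2 of the 10, against 7.58% of 12276 genes lower and 4.33% higher. Nqo1 had 133 UMIs in the WT and 20 in the KO-labelled library, or 22.7 and 5.49 CPM (-2.05, -2.80 to -1.36), and it stayed past 1.5-fold in each alternative tried. Slc7a11 had 70 and 27 UMIs (-0.69, -1.38 to -0.03) and was no longer past 1.5-fold with free RNA taken off. Ciliated-like cells held the highest level of 3 of the genes in both libraries. Gclm stood at 449 and 394 CPM (-0.19), Txnrd1 at 638 and 549 CPM (-0.22) and Pir at 177 and 142 CPM (-0.32, -0.47 to -0.17). Gclc, at 1227 and 1089 CPM, differed by -0.17 (-0.23 to -0.12). The single gene above 0 was Hmox1, with 60 and 44 UMIs (0.24, -0.36 to 0.83).

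**Figure D3:**
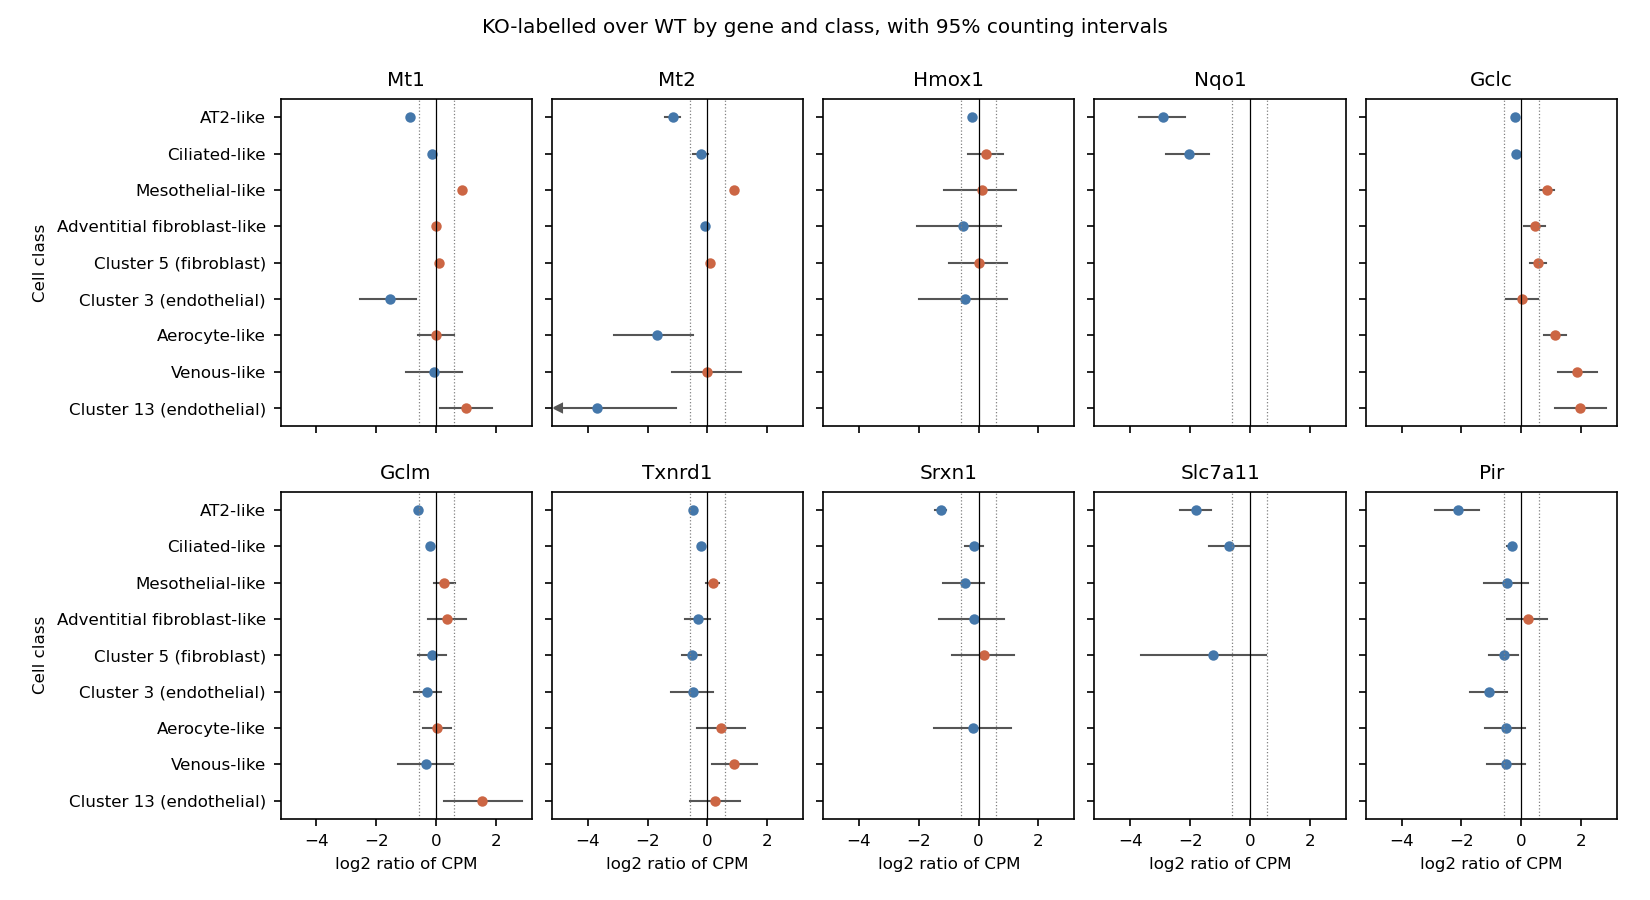
Log2 ratio of CPM, KO-labelled over WT, for each gene (panels) in the 9 compared groups (rows), with exact binomial 95% intervals for counting error. Orange points are above 0 and blue points are at or below it, dotted lines mark 1.5-fold, an arrowhead marks an interval that runs past the axis, and pairs with under 20 UMIs are left out.

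Nqo1 was lower in each of the 3 groups with at least 20 UMIs. Besides AT2-like and ciliated-like cells, airway secretory-like cells (351 WT cells and 98 KO-labelled ones) had 67 and 9 UMIs, or 16.5 and 6.15 CPM (-1.42, -2.61 to -0.41, beside a median of -0.30 for all genes of that class). None of the other compared groups reached 20 UMIs, aerocyte-like cells coming nearest with 16 and 1. Over all kept cells Nqo1 had 361 and 56 UMIs.

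Among the 15 groups with at least 20 cells in each library, Slc7a11 was highest in neutrophil-like cells. Neutrophil-like cells, a small remainder in a CD45.2-negative sort, stood at 1265 CPM in the WT library (145 cells, 230 UMIs) and 340 CPM in the KO-labelled one (25 cells, 17 UMIs). Airway secretory-like cells were next at 91.1 and 58.8 CPM (-0.63, -0.99 to -0.29), where the median of all genes of the class was -0.30 and TMM scaling would move all ratios up by 0.26. The intervals of the levels in these 2 classes did not overlap in either library. Macrophage-like cells (21 and 9 cells) were too few for this order. They had 32 and 26 Slc7a11 UMIs, of 149829 and 59045 UMIs in all. That is a higher level than in airway secretory-like cells in both libraries, and than in KO-labelled neutrophil-like cells. Together the neutrophil-like and secretory-like cells held 26.9% and 43.2% of the WT Slc7a11 UMIs, in that order. AT2-like RNA, scaled by the surfactant gene Sftpc, would make up 0.63% of WT and 23.3% of KO-labelled neutrophil-like UMIs, and its part in that ratio was not tested. Among the same 15 groups Hmox1 was highest in airway secretory-like (55.7 and 65.6 CPM) and AT2-like cells, and in WT neutrophil-like cells. In the last, 12 UMIs gave 65.98 CPM, so the order of these 3 in the WT library was not resolved. Macrophage-like cells, outside that order, had 13 and 8 Hmox1 UMIs, a higher level than in these 3 classes but from few cells. Srxn1 was highest in neuroendocrine-like cells in both libraries, at 51.5 and 64.3 CPM from 19 and 6 UMIs, with intervals that overlapped those of ciliated-like cells.

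For the 10 genes, endothelial and fibroblast groups showed few differences that could be separated from free RNA. In adventitial fibroblast-like cells 0 of 8 measured genes passed 1.5-fold (10.1% of all genes were higher and 14% lower). In cluster 5 there was 1 lower of 9, Slc7a11 with 18 and 3 UMIs (7.35% and 9.44%). Gclc accounted for 4 of the 9 pairs of gene and group that were higher. It was higher in venous-like cells (29 and 70 UMIs, 1.86, 1.21 to 2.54), aerocyte-like cells (97 and 170 UMIs, 1.12, 0.75 to 1.49), mesothelial-like cells (0.86, 0.63 to 1.09) and cluster 13 (18 and 43 UMIs, 1.96, 1.13 to 2.84). In these groups Sftpc, which marks AT2 RNA, was also higher in the KO-labelled library, for example 1459 and 11573 CPM in aerocyte-like and 1004 and 18391 CPM in venous-like cells. At the AT2 ratio of Gclc to Sftpc that RNA would give 26.8% of WT and 110% of KO-labelled Gclc UMIs in venous-like cells. In cluster 13 it would give 107% and 90.3%, in aerocyte-like cells 20.8% and 61.6%, and in mesothelial-like cells 35.1% and 52.1%. With doublets kept, the ratio was -0.10 in aerocyte-like cells, 0.13 in mesothelial-like cells and 0.27 in cluster 13, and with a looser cell filter it was 0.34 in venous-like cells. With AT2 and secretory RNA taken off, the ratio was 0.30 in aerocyte-like and 0.65 in mesothelial-like cells. In venous-like cells and cluster 13, Gclc of the KO-labelled library was close to what that RNA would give, and no difference is read there.

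The remaining calls rested on few UMIs. Aerocyte-like cells had 1 gene higher and 1 lower of 7 (7.52% and 9.74%), the lower being Mt2 with 28 and 7 UMIs (-1.69, -3.13 to -0.46). Venous-like cells had 2 higher and 0 lower of 6 (10.6% and 15.1%), Gclc and Txnrd1 with 29 and 36 UMIs (0.90, 0.15 to 1.66). Cluster 13 had 3 higher and 1 lower of 5 (11% and 17.5%). In it Mt1 had 22 and 27 UMIs (0.996, 0.13 to 1.88), and the ratio was -0.080 with fibroblast RNA also taken off and 0.17 with doublets kept. Gclm had 9 and 16 UMIs (1.53, 0.27 to 2.89), and Mt2 had 21 and 1 (-3.69, -9.06 to -1.06), so the 2 metallothioneins pointed in opposite directions in that cluster. Cluster 3 had 0 higher and 2 lower of 6 (6.52% and 8.86%). Its Mt1 had 56 and 13 UMIs (-1.55, -2.54 to -0.66), which became 0.070 at a clustering resolution of 0.5, -0.17 with a stricter cell filter and -0.16 with libraries clustered apart. Pir there stood at 62.1 and 29.2 CPM (-1.09, -1.72 to -0.49), from 97 and 31 UMIs, and its ratio lay between -1.32 and -1.02 in the alternatives tried. Pir was also well above background in venous-like cells, at 126 and 88.9 CPM (-0.50, -1.14 to 0.12), second to ciliated-like cells in both libraries. In all, 69 of 90 pairs of gene and compared group were measured, with 9 higher and 14 lower. The 14 include Pir in AT2-like cells.

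Summed over all kept cells, 7 of the 10 genes were lower past 1.5-fold and 0 higher, where 29.9% of 17485 genes were lower and 2.14% higher. For Mt1 and Mt2 this difference was not seen at a fixed make-up of classes. Mt1 stood at 797 and 352 CPM (-1.18) over all kept cells. With the class levels of the KO-labelled library weighted by the class shares of the WT library it stood at 885 CPM, a ratio of 0.15, and Mt2 changed from -1.32 to 0.22 in the same way. The share of AT2-like cells was 37.2% in the WT and 65.1% in the KO-labelled library, and that of adventitial fibroblast-like cells 4.56% and 1.35%. Adventitial fibroblast-like cells held 32.4% of the WT and 19.7% of the KO-labelled Mt1 UMIs. Whether fewer cells of a class were present in the tissue or fewer were recovered by digestion and sorting cannot be told apart. Nqo1 moved from -2.66 to -2.04 at the WT make-up, Slc7a11 from -1.92 to -0.80, Srxn1 from -0.88 to -0.60 and Pir from -1.21 to -0.37. These 4 genes and Gclm (-0.67 to -0.20) kept their direction. With the WT class levels weighted by the KO-labelled make-up instead, the ratios were -0.01 for Mt1, 0.13 for Mt2, -2.35 for Nqo1, -0.99 for Slc7a11, -0.92 for Srxn1, -0.46 for Pir and -0.32 for Gclm, so that of Srxn1 was no smaller than over all kept cells. Gclc went from 0.20 to -0.15 and Hmox1 from 0.15 to -0.11 at the WT make-up, and both stood at -0.18 at the other.

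**Figure D4:**
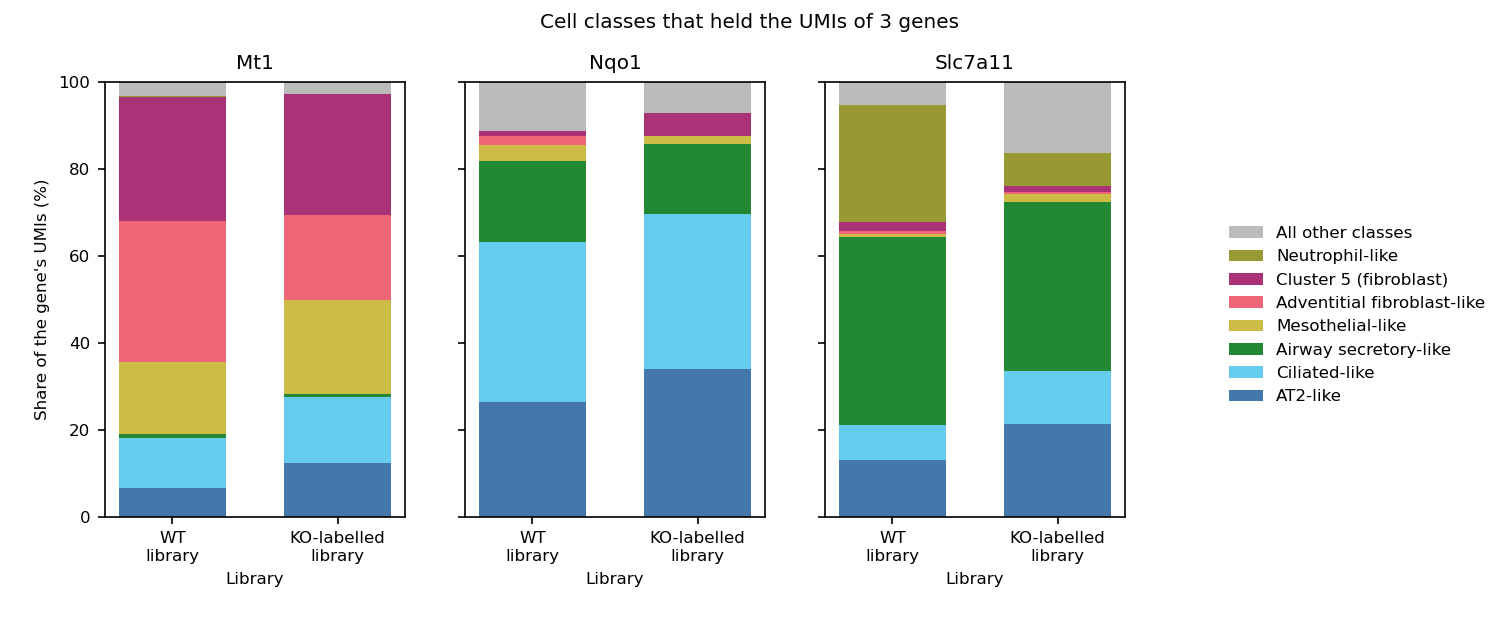
Share of the UMIs of Mt1, Nqo1 and Slc7a11 (y axis, percent of the gene's UMIs in that library) that came from each cell class, one bar per library. AT2-like, ciliated-like and airway secretory-like cells held most Nqo1, fibroblast and mesothelial-like cells most Mt1, and neutrophil-like cells 26.9% of WT Slc7a11.

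The genes most like each member across the 9 compared groups of both libraries were picked by the Pearson correlation of log2(CPM + 10) over 18 values, which share libraries and are not independent. For Mt1 they were Sdc2, Egfr and Pcolce (0.97, 0.97 and 0.96). For Mt2 they included Ccl7 and Dcn (each 0.97). For Gclc they were Sdc1, Crb3 and Mal2 (each 0.98). Gclm was closest to Kcnrg, Stpg1 and Dnah12 (each 0.95), and Hmox1 to Dpp9, Chsy1 and Chia1 (0.95, 0.95 and 0.94). Txnrd1 was closest to S100a11, Plp2 and H3f3b (0.94, 0.93 and 0.93) and Pir to Gtf2a2, Heatr5a and Ehbp1l1 (0.93, 0.89 and 0.85). Among the members themselves Mt1 and Mt2 were the closest pair (0.93). Txnrd1 and Slc7a11 (0.75) and Hmox1 and Gclc (0.74) came next. Slc7a11 was at most 11.9 CPM in the compared groups, near the 10 CPM added, so its correlation rests on low counts. Gclm and Gclc, whose products form 1 enzyme, were highest in different classes, ciliated-like and AT2-like. Nqo1, Srxn1 and Slc7a11 had no compared group above 50 CPM and were left out of this search.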

How the data were processed

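The deposited matrices hold counts, raw UMIs per gene and barcode, written by Cell Ranger (7.0.0 per the file headers, 7.0.0 and 7.1.0 with mm10 per the submitters' processing notes). How barcodes were chosen and whether intronic reads were counted is not given in the sources used here. Cells were required to have 500 or more detected genes and no more than 15% of UMIs from mitochondrial genes, and cells marked by Scrublet (617 WT, 175 KO-labelled) were removed. Both libraries were clustered together in scanpy 1.11.5 (2000 variable genes, 30 components, 15 neighbours, Leiden resolution 1, leidenalg 0.10.2), without the 10 genes, Plaur, and mitochondrial, ribosomal, haemoglobin, Xist and Y-linked genes. A class name needed 3 or more of its preset markers in the cluster's top 50. It was withheld where another class had as many or more markers in the top 10. Low median depth withheld a name only where no marker of the class was in the top 10. After the clusters were seen, 2 naming rules were added, on tied markers and on genes of another compartment.

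For each class, the UMIs of a library's cells were added up, and CPM is taken over that sum. Ratios have exact conditional binomial and levels exact Poisson 95% intervals, which cover counting error only. A gene with 0 UMIs was set at a floor of 3. The ratio and its interval were tested on simulated data. Free RNA was traced by scaling a source class to its marker genes. Promoters are RefSeq sequences, and 32158 of 32285 gene identifiers were found in GENCODE M21. All 10 genes are named, with the 3 genes most like each of the 7 that passed 50 CPM in a compared group (1 of these genes is not reported here), and the members and lists were chosen with earlier results of these data known. Alternatives included edgeR 4.0.16 TMM factors, other cell filters, resolutions and minimums, and, chosen after seeing the data, fibroblast RNA taken off.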

Additional observations from a re-analysis of the deposited data

Results flagged for a closer look

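Mt1 and Mt2 had opposite directions in 2 classes with many UMIs. In AT2-like cells the log2 ratio of the KO-labelled over the WT library was -0.863 for Mt1 and -1.16 for Mt2, while in mesothelial-like cells it was 0.875 for Mt1 and 0.886 for Mt2. With 1 library per genotype the difference between these classes was not tested.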

How the results depend on the processing

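Of 846 alternative values, 721 lay within the counting interval of the reported ratio, 122 moved and 3 changed the direction of a ratio past 1.5-fold. Those 3 were Gclc in aerocyte-like cells (-0.10 with doublets kept), Mt1 in cluster 3 (0.070 at resolution 0.5) and Mt1 in cluster 13 (-0.080 with fibroblast RNA also taken off), and the cause was not tested. Of 545 alternative values of ratios not past 1.5-fold, 43 changed sign. Pairs of gene and group that were higher numbered 9, and 14 with no minimum of UMIs, 4 with a minimum of 100 UMIs and 4 with a fold of 2. Pairs that were lower numbered 14, and 22 with no minimum and 8 with a minimum of 100 UMIs. Mt1 lay between -0.90 and -0.67 in AT2-like cells and between 0.74 and 0.94 in mesothelial-like cells over 12 alternatives, and Nqo1 between -3.42 and -2.74 in AT2-like cells. The range in mesothelial-like cells does not show what fibroblast RNA contributed to the Mt1 ratio there, which was not tested. TMM scaling moved all ratios up by 0.25 over all kept cells. No paired analysis was possible because each genotype had 1 library. Depth limits Nqo1, Slc7a11 and the endothelial groups, where most pairs rest on under 100 UMIs.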

Other observations

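Mt3, a metallothionein known from neurons, was counted mainly in neuroendocrine-like cells, at 73.1 CPM (27 UMIs) in the WT and 85.7 CPM (8 UMIs) in the KO-labelled library. Over all kept cells it had 34 and 13 UMIs, and AT2-like, mesothelial-like and airway secretory-like cells had 0 in both libraries. Neuroendocrine-like cells also had Mt1 and Mt2, so 3 metallothionein genes were counted in that class. This gene was chosen after its values were seen. Other values concern the control of the system in mesothelial-like cells. Bach1, a repressor of NRF2 targets, stood at 163 and 224 CPM (0.46, 0.27 to 0.65), not past 1.5-fold. Slc30a1, the zinc exporter whose gene MTF1 is known to induce, had 99 and 13 UMIs (-1.22, -2.18 to -0.38), opposite to Mt1 and Mt2. Of all genes of this class, 17.2% were lower past 1.5-fold. The ratio of Mtf1 there was 0.55 (-0.01 to 1.09), not past 1.5-fold and with an interval that included 0.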
